A study of Mus musculus with 24 samples.

Results

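The 10 genes described here build, break down and take up triglyceride, and they were followed through mammary tumor development in the mouse. The members were chosen by name, as the rows of the count table whose Ensembl identifiers carry the symbols Lpl, Lipe, Pnpla2, Mgll, Dgat1, Dgat2, Agpat2, Cd36, Gpd1 and Pck1 in the GENCODE M1 annotation. They are 10 of 37991 genes in the table and of 14918 genes tested, and all 10 passed the filter on low counts. Total RNA of mammary tumors or normal mammary glands was sequenced from 24 female mice in 8 groups of 3, each sample a separate mouse. The PyMT mice were heterozygous for a transgene that puts the polyoma middle T antigen under the long terminal repeats of the mouse mammary tumor virus, which act mainly in mammary epithelium, and they develop mammary tumors. Their controls were age-matched homozygous FVB females, the strain into which the transgene had been bred, and no group received a treatment. Samples were taken at weeks 6, 8, 10 and 12, and the study assigns week 6 to hyperplasia, week 8 to adenoma/MIN, week 10 to early and week 12 to late carcinoma. The normal gland of a young female mouse is an epithelial tree in a fat pad, so a tumor and a gland differ in the cells they hold.

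Fat cells store energy as triglyceride in a lipid droplet. Fatty acids enter the cell after lipoprotein lipase releases them from circulating lipoproteins, are attached in steps to glycerol 3-phosphate, and leave again through a chain of lipases when the body calls for fuel. Many genes of this pathway are targets of the transcription factor PPARG, and in the mammary gland the pathway is shared between the adipocytes of the fat pad and the epithelium that makes milk fat.

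The members are described by role. Agpat2 makes phosphatidic acid, a precursor of triglyceride, and Dgat1 and Dgat2 encode unrelated enzymes that both add the last fatty acid. Lpl acts outside the cell on lipoproteins, while Pnpla2, Lipe and Mgll remove successive fatty acids, in that order, from the stored fat. Cd36 is a membrane receptor that takes up long-chain fatty acids. Gpd1 makes glycerol 3-phosphate from a sugar intermediate, and Pck1 feeds glyceroneogenesis, which makes it from smaller precursors. On the mm9 genome the annotation places Dgat1 at chr15:76332445-76342381 on the minus strand, Dgat2 at chr7:106302173-106331223 on the minus strand and Agpat2 at chr2:26448577-26459937 on the minus strand. Lpl lies at chr8:71404390-71431347 on the plus strand, Lipe at chr7:26164546-26183729 on the minus strand, Pnpla2 at chr7:148641097-148646642 on the plus strand and Mgll at chr6:88674406-88778354 on the plus strand. Cd36 lies at chr5:17287508-17394777 on the minus strand, Gpd1 at chr15:99547946-99555436 on the plus strand and Pck1 at chr2:172978549-172984774 on the plus strand. Exons of 4 members overlap those of a gene on the opposite strand. Egfl7 shares 64 bases with Agpat2 and had 9430 counts over the 24 samples, and the partners of Lipe, Mgll and Gpd1 had 77, 321 and 52 counts. The libraries kept strand, but the strand setting used in counting is not given in the sources used here, so reads in these stretches are uncertain.

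Promoter sequences are shown for 3 members that fell together, 1 each of uptake, assembly and glycerol 3-phosphate supply. They are the 250 bases before the start of transcription, from RefSeq on GRCm38.p6, printed 5′ to 3′ on the strand of the gene, and no coordinate was carried between this build and mm9. Capitals mark matches on either strand to AGGTCA, the half-site of nuclear receptors such as PPARG, to ACGTCA, which is part of the cAMP response element, and to GGGCGG, the GC box. The half-site repeated with 1 base between, AGGTCANAGGTCA, was searched as well. Matches to 1 motif could overlap.
Pck1, chr2:173152823-173153072, plus strand: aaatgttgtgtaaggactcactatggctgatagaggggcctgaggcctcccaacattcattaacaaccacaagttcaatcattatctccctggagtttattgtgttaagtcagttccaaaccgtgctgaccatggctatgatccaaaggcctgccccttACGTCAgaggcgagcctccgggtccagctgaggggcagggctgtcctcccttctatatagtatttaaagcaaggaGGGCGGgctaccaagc
Cd36, chr5:17835897-17836146, minus strand: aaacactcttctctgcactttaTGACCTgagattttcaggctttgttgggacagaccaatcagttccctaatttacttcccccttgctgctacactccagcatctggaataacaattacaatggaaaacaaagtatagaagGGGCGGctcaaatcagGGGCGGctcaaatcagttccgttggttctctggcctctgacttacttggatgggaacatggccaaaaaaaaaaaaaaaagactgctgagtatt
Agpat2, chr2:26604418-26604667, minus strand: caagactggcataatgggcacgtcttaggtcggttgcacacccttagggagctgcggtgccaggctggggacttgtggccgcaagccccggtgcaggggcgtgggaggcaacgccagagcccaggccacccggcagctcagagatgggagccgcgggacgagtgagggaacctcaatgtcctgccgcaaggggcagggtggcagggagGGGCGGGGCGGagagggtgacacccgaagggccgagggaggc
In Pck1, which hormones that raise cAMP are known to induce, ACGTCA began 91 bases before the start and GGGCGG 16 bases before it. In Cd36, AGGTCA was matched at 228 bases, on the opposite strand, and GGGCGG at 109 and 93 bases. In Agpat2, only GGGCGG was found, at 42 and 37 bases. Of all 32851 promoters of the same length, 14.0% held AGGTCA, 6.47% held ACGTCA and 32.7% held GGGCGG. The repeat AGGTCANAGGTCA was in 11 of them (0.0335%) and in none of the 8 entries for 6 members, which include Lipe, Pnpla2 and Mgll. Among these 8 entries AGGTCA was matched only in that of Cd36 and ACGTCA only in that of Pck1. The entries of Lipe, Pnpla2 and Mgll held neither. No entry was used for Lpl, Dgat1, Dgat2 and Gpd1. These matches are a description of letters in the window.

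Libraries held between 6969375 and 13516601 counts. Values below are normalized counts, that is counts divided by DESeq2's size factor of the library, unless another scale is named. A smoothed histogram of genes over their counts had a local peak at 8 to 25 counts in 6 PyMT and 7 FVB libraries. The place of this peak is called the packet size, and its height was not compared with that near 1. The FVB library of week 10 replicate 3 and the PyMT library of week 8 replicate 2 stood apart, since 4.4% and 2.87% of 3799 genes of middle abundance were at 0 there, against at most 1.92% in the others. Summed skeletal muscle markers reached 565785 in the former. Luminal epithelial keratins and other luminal markers were present in every sample, with a summed level of 19707 to 37268 in PyMT and 4174 to 18300 in FVB.

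All members were lower in PyMT tumors than in FVB glands. Over the 4 weeks the PyMT mean was between 3.33-fold (Dgat1) and 15.0-fold (Lpl) below the FVB mean. With week as a covariate, 10 of 10 members passed the test as lower (edgeR's quasi-likelihood test, with a Benjamini-Hochberg adjusted p below 0.05 and a change of more than 2-fold), against 17.2% of all tested genes. The median log2 fold change of the members was -3.39, and that of all tested genes was -0.03. In bulk samples such as these, fewer cells of a type and less RNA per cell cannot be told apart.

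At week 6, the hyperplasia stage, 9 of 10 members were called lower, against 6.46% of tested genes, and the exception was Gpd1. At week 8 the count was 8 of 10, against 6.37%, with Agpat2 and Gpd1 outside the call. All 10 were called lower at week 10, against 9.09%, and at week 12, against 13%. The calls of the first 2 time points leaned on single libraries. At week 6 only 3 members passed without PyMT replicate 3 and 6 without PyMT replicate 1, and at week 8 only 3 passed without PyMT replicate 3 and 6 without PyMT replicate 1 or FVB replicate 2. Each left-out library leaves 2 samples on 1 side, so these fits also have less power. The log2 fold changes stayed below 0 for every member at every week in all of them.

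The groups did not overlap for 9, 9, 10 and 10 members at weeks 6, 8, 10 and 12. Among all tested genes 20.4%, 21.7%, 21.6% and 25.2% were lower in PyMT without overlap at these weeks. Over all 12 against 12 samples 8 members were separated, against 7.22% of tested genes, and Agpat2 and Gpd1 were not. The plot of members by sample shows this gap for each gene.

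**Figure D1:**
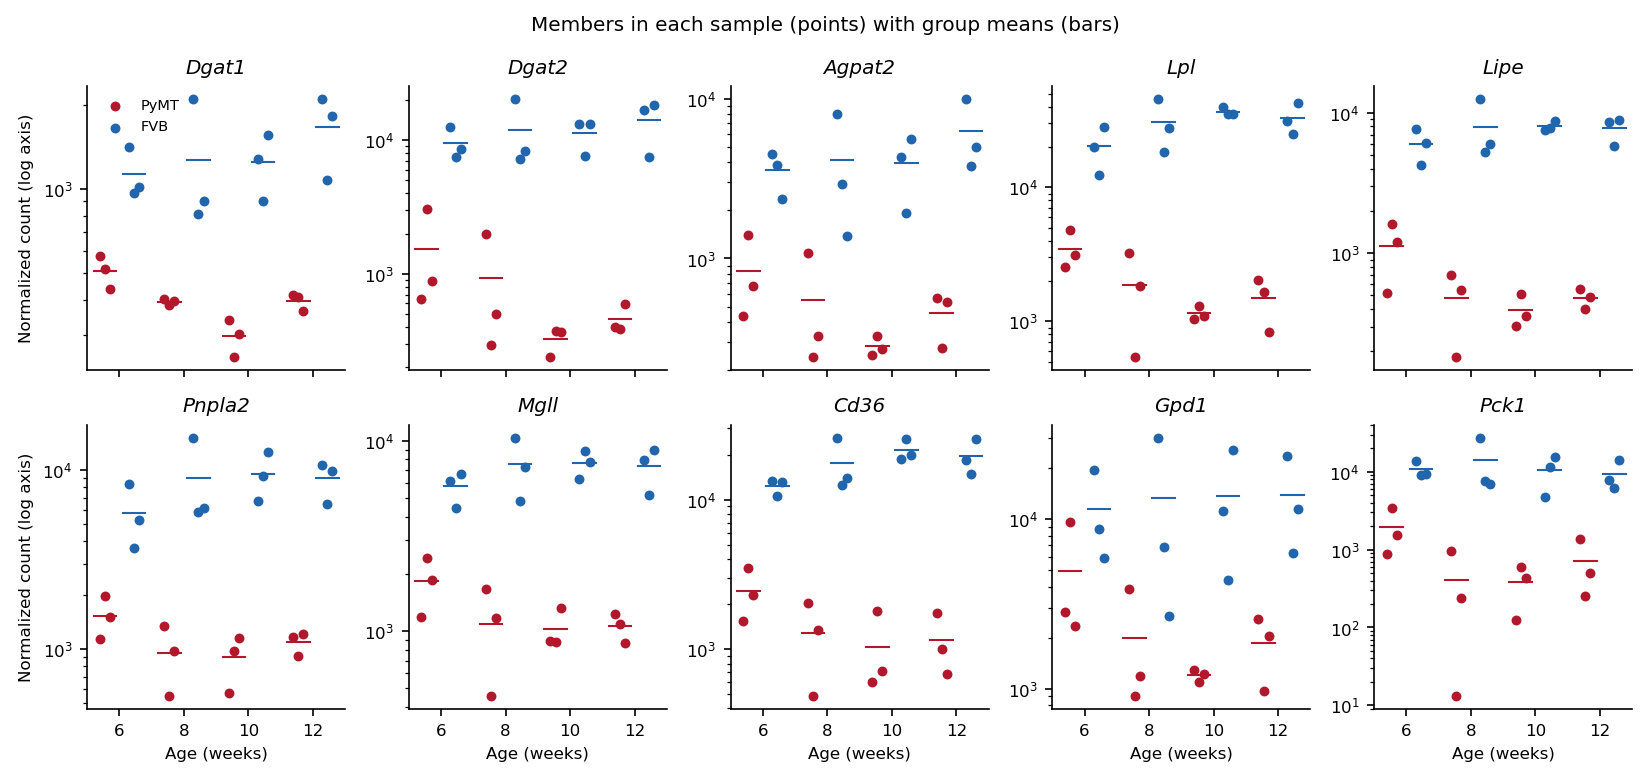
Normalized count of each member (log axis) against age in weeks, with 1 point per sample (PyMT red, FVB blue, 3 per group) and a bar at each group mean. In all panels except Agpat2 and Gpd1 every PyMT point lies below every FVB point, and the lowest point of all is Pck1 at 13.1 in PyMT week 8 replicate 2.

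Of the enzymes of triglyceride assembly, Dgat1 was the least changed and Dgat2 the most. Dgat1 measured 573, 516 and 436 normalized counts in the 3 PyMT samples of week 6, 402, 382 and 396 at week 8, 338, 248 and 301 at week 10, and 415, 408 and 366 at week 12. In FVB it measured 1412, 966 and 1017 at week 6, 2098, 808 and 903 at week 8, 1275, 907 and 1557 at week 10, and 2096, 1078 and 1829 at week 12. The PyMT values were close to one another and none reached the lowest FVB value of 808. Over the 4 weeks Dgat1 fell by 1.73 on the log2 scale (SE 0.16, edgeR adjusted p = 3.68e-09), the smallest change among the members.

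Dgat2 varied far more between tumors. Its PyMT values were 650, 3039 and 883 normalized counts at week 6, and 1987, 293 and 500 at week 8. They were 237, 376 and 368 at week 10, and 397, 387 and 599 at week 12. The FVB glands held 12602, 7447 and 8602 at week 6, 20393, 7292 and 8251 at week 8, 13293, 7628 and 13321 at week 10, and 16987, 7546 and 18347 at week 12. The highest PyMT samples, replicate 2 of week 6 and replicate 1 of week 8, still lay below every FVB sample. Over the 4 weeks the log2 fold change of Dgat2 was -4.10 (SE 0.40, edgeR adjusted p = 6.99e-09), and it moved from -2.67 (SE 0.57) at week 6 to -5.08 (SE 0.35) at week 10.

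Agpat2, whose loss causes lipodystrophy, ranged from 240 to 1396 normalized counts in PyMT with a median of 384. In FVB it ranged from 1379 to 9971 with a median of 4072. The highest PyMT sample, replicate 2 of week 6, was just above the lowest FVB sample, replicate 3 of week 8. Within each week the groups were apart. Its log2 fold change over the 4 weeks was -3.13 (SE 0.34, edgeR adjusted p = 5.19e-08). At week 8, where the FVB values were 8065, 2906 and 1379, the change of -2.88 (SE 0.79) missed the threshold (edgeR adjusted p = 0.0548). It passed with DESeq2 (adjusted p = 0.000277) and without FVB replicate 3 (edgeR adjusted p = 0.0466). With 1 library left out in turn, this change ranged from -3.84 to -1.92, with edgeR adjusted p up to 0.158.

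Among the lipases, Lpl was the most abundant by count and lost the most. Its PyMT values were 2543, 4812 and 3116 normalized counts at week 6, 3264, 538 and 1839 at week 8, 1051, 1303 and 1091 at week 10, and 2036, 1645 and 828 at week 12. In FVB, Lpl stood at 20160, 12391 and 28437 at week 6, 45697, 18217 and 27588 at week 8, 39469, 35096 and 35438 at week 10, and 31320, 25040 and 42587 at week 12. The highest tumor, at 4812, was far below the lowest gland, at 12391. The log2 fold change of Lpl was -4.00 (SE 0.33, edgeR adjusted p = 3.98e-10) over the 4 weeks, and its largest weekly change was -4.95 (SE 0.22) at week 10, when the FVB samples agreed closely.

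Lipe, hormone-sensitive lipase, had the smallest adjusted p of the members. It measured 524, 1626 and 1208 normalized counts in PyMT at week 6, 704, 181 and 545 at week 8, 302, 516 and 359 at week 10, and 554, 399 and 492 at week 12. The FVB samples held 7668, 4257 and 6053 at week 6, 12552, 5299 and 6001 at week 8, 7558, 7777 and 8774 at week 10, and 8610, 5795 and 8831 at week 12. The tumor mean was highest at week 6, at 1120, and was 477, 392 and 481 at weeks 8, 10 and 12. Single tumors of week 6 and of the later weeks overlapped. All tumor values were under the FVB minimum of 4257. The log2 fold change over the 4 weeks was -3.71 (SE 0.28, edgeR adjusted p = 1.15e-10).

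Pnpla2 and Mgll, the lipases that act before and after Lipe, fell less. Pnpla2, adipose triglyceride lipase, ranged from 545 to 1967 normalized counts in PyMT with a median of 1146, and from 3684 to 15199 in FVB with a median of 7498. Its log2 fold change was -2.89 (SE 0.24, edgeR adjusted p = 4.37e-10). Mgll, monoglyceride lipase, ranged from 456 to 2438 in PyMT with a median of 1177, and from 4445 to 10408 in FVB with a median of 7028. That made a log2 fold change of -2.51 (SE 0.21, edgeR adjusted p = 6.76e-10). Neither gene had a tumor within the range of the glands.

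Cd36 was called lower at each of the 4 weeks. The receptor measured 1532, 3492 and 2307 normalized counts in PyMT at week 6, 2034, 484 and 1348 at week 8, 602, 1799 and 711 at week 10, and 1736, 1002 and 686 at week 12. In FVB it measured 13318, 10573 and 13101 at week 6, 26007, 12530 and 13982 at week 8, 18728, 25426 and 19918 at week 10, and 18423, 14923 and 25360 at week 12. No sample of one genotype entered the range of the other, and the 3 FVB replicates of week 6 were close together. The log2 fold change over the 4 weeks was -3.64 (SE 0.30, edgeR adjusted p = 4.91e-10).

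Of the genes that supply glycerol 3-phosphate, Pck1 had some of the lowest values of any member in single tumors. Pck1, the cytosolic phosphoenolpyruvate carboxykinase, had 866, 3473 and 1533 normalized counts in PyMT at week 6, 967, 13.1 and 241 at week 8, 125, 604 and 430 at week 10, and 1389, 254 and 505 at week 12. The FVB samples had 13592, 9158 and 9440 at week 6, 27463, 7509 and 6904 at week 8, 4715, 11498 and 15399 at week 10, and 7878, 6179 and 14229 at week 12. Pck1 varied most among tumors, with a coefficient of variation of 110% over the 12 PyMT samples. The value of 13.1 rests on 14 counts in a library whose packet size was 23. The log2 fold change of Pck1 was -4.01 (SE 0.54, edgeR adjusted p = 1.13e-06) over the 4 weeks. At week 8 it was -5.07 (SE 1.34, edgeR adjusted p = 0.0492), and leaving out 1 library in turn moved it from -6.72 (without PyMT replicate 1) to -4.11 (without FVB replicate 1). The call at week 8 was lost without any of the 3 FVB replicates and without PyMT replicate 1 or 3.

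Gpd1, glycerol 3-phosphate dehydrogenase, was the member with the widest spread in normal glands. FVB samples held 19558, 8788 and 5905 normalized counts at week 6, 30331, 6863 and 2693 at week 8, 11247, 4399 and 25463 at week 10, and 23764, 6345 and 11480 at week 12. Tumors held 2843, 9634 and 2346 at week 6, 3883, 902 and 1179 at week 8, 1287, 1099 and 1212 at week 10, and 2574, 968 and 2056 at week 12. The groups overlapped at weeks 6 and 8 and were apart at weeks 10 and 12. The log2 fold change was -1.24 (SE 0.61) at week 6 (edgeR adjusted p = 0.241) and -2.72 (SE 0.94) at week 8 (edgeR adjusted p = 0.103). Without PyMT replicate 2, the tumor sample at 9634, the change at week 6 was -2.08 and passed (edgeR adjusted p = 0.0462). With 1 library left out in turn, this change ranged from -2.08 to -0.56, with edgeR adjusted p up to 0.633. Over the 4 weeks Gpd1 changed by -2.59 (SE 0.44, edgeR adjusted p = 2.47e-05).

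The glands with the highest Gpd1 also had the highest markers of brown fat. The 4 brown fat markers (Ucp1, Elovl3, Cidea and Cox8b) summed to 14677 in FVB week 8 replicate 1, 11425 in week 10 replicate 3, 8681 in week 6 replicate 1 and 8541 in week 12 replicate 1. These were the 4 FVB samples with the highest Gpd1. In the other 8 FVB samples the markers summed to 162 to 2948 and did not follow the order of Gpd1. The lowest sum and the lowest Gpd1 were both in week 8 replicate 3, but week 12 replicate 3 had a sum of 197 beside a Gpd1 of 11480, and week 10 replicate 2 had a sum of 2948 beside a Gpd1 of 4399. Skeletal muscle markers were also highest in 3 of the 4 glands with high Gpd1, where they summed to 565785 (week 10 replicate 3), 532526 (week 6 replicate 1) and 305971 (week 12 replicate 1), and they summed to 619 in the fourth. Among tumors Gpd1 and the brown fat markers were both highest in week 6 replicate 2, where these markers summed to 5767. Tumor skeletal muscle markers were highest in week 6 replicate 1, at 31805. The sum of the 4 brown fat markers ranged from 3.75 to 5767 in PyMT and from 162 to 14677 in FVB. Of these markers 4 of 4 were called lower over the 4 weeks, against 17.2% of all tested genes. The part of brown fat or muscle in the Gpd1 result was not tested.

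**Figure D2:**
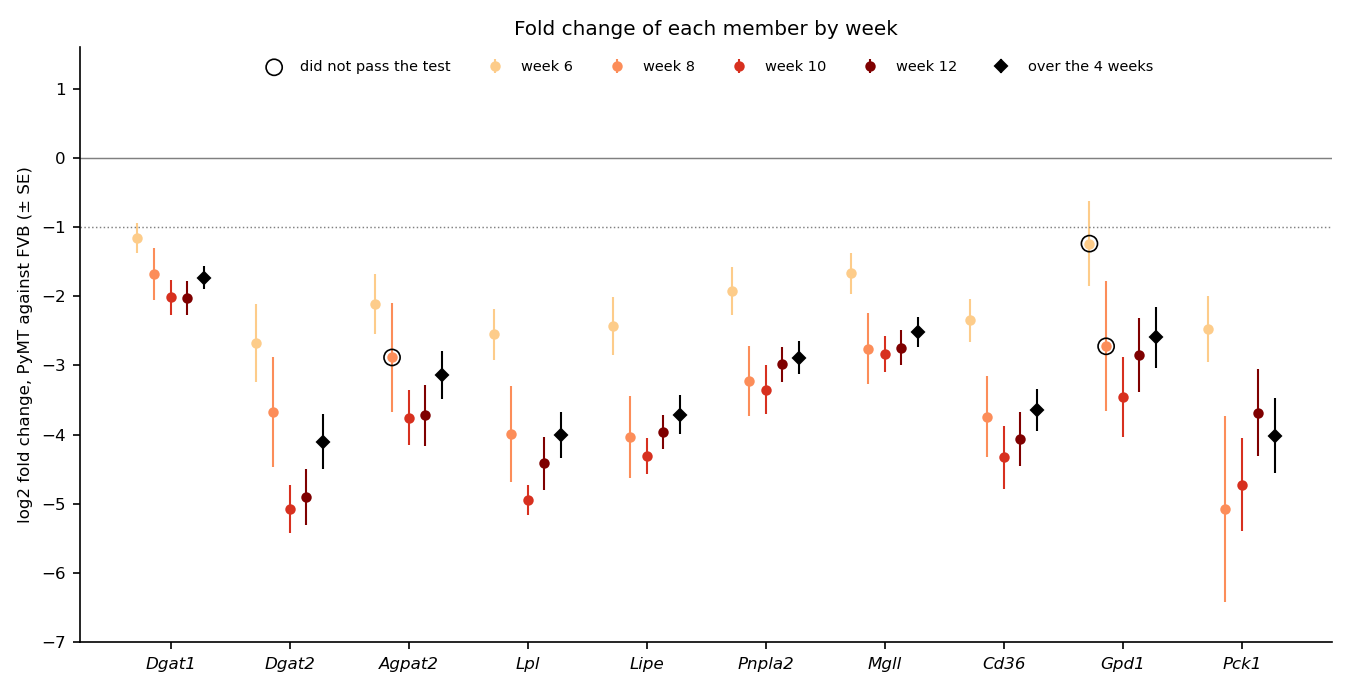
log2 fold change of PyMT against FVB for each member (vertical axis, bars are 1 SE) at weeks 6, 8, 10 and 12, from 3 against 3 samples, and over the 4 weeks from 12 against 12 (black). Circled points did not pass the test, and the dotted line marks a fold change of 2. All points lie below 0, from -1.16 (Dgat1 at week 6) to -5.08 (Dgat2 at week 10).

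The fold change of each member was closest to 0 at week 6, as the plot of fold changes by week shows. The median log2 fold change of the 10 members was -2.23, -3.45, -4.03 and -3.70 at weeks 6, 8, 10 and 12. Whether the difference itself changed was tested with all 24 samples and 8 group means, and no member passed. From week 6 to week 12 the PyMT against FVB difference of Lpl changed by -1.87 (SE 0.66), that of Dgat2 by -2.25 (SE 0.85), that of Cd36 by -1.72 (SE 0.66) and that of Lipe by -1.54 (SE 0.60). With Dgat1 these were the 5 members with an unadjusted p under 0.05 (edgeR, unadjusted p = 0.0103 to 0.0495, adjusted p = 0.937 or more). Of the 14918 genes 691 had an unadjusted p under 0.05 in this contrast, 0% passed the adjustment, and DESeq2 called 0 members.

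Within the tumors alone, all 10 members had a lower mean at week 12 than at week 6, and 0 of 10 passed (0% of tested genes). The values were -1.70 (SE 0.61) for Dgat2, -1.21 (SE 0.43) for Lipe, -1.20 (SE 0.47) for Lpl and -1.09 (SE 0.47) for Cd36 on the log2 scale, with unadjusted p of 0.0104 to 0.0302 and adjusted p of 0.482 or more in edgeR. The remaining 6 ran from -0.35 (SE 0.30) for Dgat1 to -1.44 (SE 0.91) for Pck1. At an unadjusted p under 0.05 there were 1004 genes, and DESeq2 called 0 members. Within the FVB glands 9 of 10 members were higher at week 12 than at week 6, with a median difference of 0.54, and none passed at an adjusted or unadjusted p of 0.05 (edgeR, 625 genes at an unadjusted p under 0.05, DESeq2 0 members). The F test over the 4 weeks called 0 members in PyMT and 0 in FVB, while 0% and 0.0067% of tested genes were called. At an unadjusted p under 0.05 in this test there were 5 members and 597 genes in PyMT. In FVB there were 0 members and 635 genes. For the change of the difference between weeks 8 and 10, which separate the premalignant from the malignant stages, no member had an unadjusted p under 0.05 (edgeR, 533 genes did, and 0.0067% of genes were called), and DESeq2 called 0 members. None of these changes between weeks passed the adjustment over all 14918 genes.

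The order of the mean levels was not the same in glands and tumors. Counts per kilobase of exon were used to compare levels of different genes. The length is that of all annotated exons of a gene, which can exceed that of the transcript present, so the order is approximate. In FVB over the 12 samples Dgat2 was highest at 5246 ± 2102 normalized counts per kilobase (SD, n = 12), followed by Cd36 at 4505 ± 1402, Lpl at 4423 ± 1488, Gpd1 at 4414 ± 3139, Pck1 at 3256 ± 1791 and Pnpla2 at 2762 ± 1106. Then came Agpat2 at 2096 ± 1171, Lipe at 1645 ± 485, Mgll at 1452 ± 372 and Dgat1 at 435 ± 153. Only Mgll and Dgat1, the last neighbours in this order, were further apart than the SD of either.

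In PyMT the order per kilobase was led by Gpd1 at 844 ± 820 (SD, n = 12), then Cd36 at 376 ± 223, Pnpla2 at 372 ± 128, Dgat2 at 360 ± 375 and Lpl at 294 ± 182. Mgll followed at 258 ± 108, Pck1 at 253 ± 277, Agpat2 at 250 ± 171, Lipe at 137 ± 90.1 and Dgat1 at 130 ± 28.5. No neighbours in this order differed beyond the larger of their SDs. Dgat2 and Dgat1, first and last in the glands, stood at 677 ± 585 and 166 ± 22.6 per kilobase in the tumors of week 6 and at 412 ± 411 and 129 ± 3.40 in those of week 8 (SD, n = 3). Tumors of week 10 had 145 ± 34.7 and 96.9 ± 14.8, and tumors of week 12 had 205 ± 53.1 and 130 ± 8.74 (SD, n = 3).

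Ratios between members that perform the same or neighbouring steps were compared sample by sample on the log2 scale. They draw on the same counts as the fold changes above and were chosen with earlier results known, so they are not separate evidence. The Dgat2 to Dgat1 ratio was 3.13 ± 0.16 in FVB and 0.58 ± 0.97 in PyMT (SD, n = 12 each), a difference of -2.55. All 12 PyMT samples lay below the lowest FVB sample. Permuting the genotype within each week gave the smallest p that the 160000 arrangements allow (exact permutation test, two-sided, p = 1.25e-05, adjusted p = 1.67e-05 over 4 ratios). The tumors of week 6 lay between 0.18 and 2.56 and those of week 8 between -0.38 and 2.30. At weeks 10 and 12 the bounds were -0.51 and 0.60, and -0.08 and 0.71. All FVB samples lay between 2.81 and 3.38.

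The Lipe to Mgll ratio was 0.06 ± 0.20 in FVB and -1.14 ± 0.39 in PyMT (SD, n = 12 each), a difference of -1.20 with 12 of 12 tumors below every gland (exact permutation test, two-sided, p = 1.25e-05, adjusted p = 1.67e-05). The Lipe to Pnpla2 ratio was -0.12 ± 0.22 in FVB and -1.01 ± 0.43 in PyMT, a difference of -0.90 with 10 of 12 tumors below every gland (exact permutation test, two-sided, n = 12 each, p = 1.25e-05, adjusted p = 1.67e-05). Lipe, the enzyme between the other two, was thus lower relative to both of them in tumors. The Lpl to Cd36 ratio differed little, at 0.74 ± 0.26 in FVB and 0.42 ± 0.35 in PyMT. The difference was -0.32 with 2 of 12 tumors below every gland (exact permutation test, two-sided, n = 12 each, p = 0.0218, adjusted p = 0.0218). It missed the threshold without FVB week 6 replicate 3 (-0.26, exact permutation test, adjusted p = 0.0566) and without FVB week 10 replicate 1 (-0.28, adjusted p = 0.0612).

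Markers of adipocytes fell with the members. The 8 adipocyte markers (Adipoq, Cfd, Retn, Lep, Lgals12, Car3, Acvr1c and Adig) summed to 1382 to 13490 in PyMT and to 55126 to 143159 in FVB. None was at 0 in a sample, and 8 of 8 were called lower over the 4 weeks, against 17.2% of all tested genes. The PyMT minus FVB difference of their mean log2 level was -2.40, -4.22, -4.68 and -4.52 at weeks 6, 8, 10 and 12, from 3 samples each. A second list (Plin1, Cidec, Fabp4, Pparg, Aqp7 and Adrb3), which shares all its genes with the pathway list below, was lower in 6 of 6, with summed levels of 716 to 11282 in PyMT and 32423 to 76447 in FVB.

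Other cell type markers moved too, and their part in the members' values was not tested. Over the 4 weeks 17.2% of all tested genes were called lower and 8.51% higher. Endothelial markers were called lower in 5 of 5 (summed 592 to 1769 in PyMT, 3776 to 7201 in FVB) and fibroblast markers in 4 of 4 (11266 to 23952 against 24545 to 98495). Skeletal muscle markers were called lower in 6 of 6 (0 to 31805 against 76.6 to 565785), basal epithelial markers in 1 of 4 (845 to 4791 against 948 to 4945) and macrophage markers in 0 of 5 (1586 to 3155 against 1900 to 4541). Luminal markers were called higher in 5 of 6, and the milk protein genes Csn1s1, Csn2, Csn3, Wap and Lalba in 5 of 5 (39200 to 119927 against 805 to 8665).

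**Figure D3:**
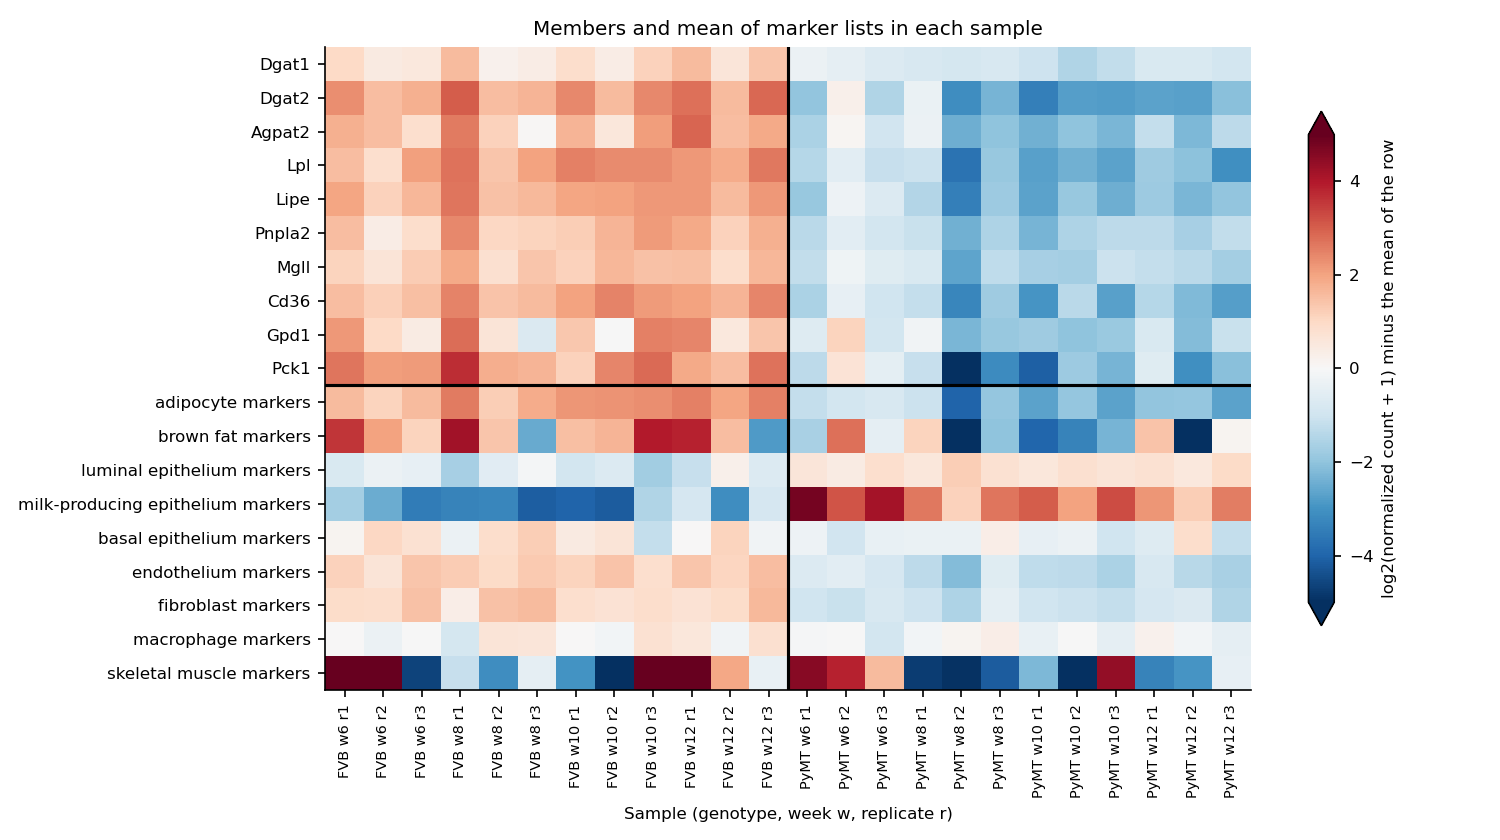
Rows are the 10 members and the mean of 9 marker lists, columns are the 12 FVB (left) and 12 PyMT (right) samples, and color is log2(normalized count + 1) minus the mean of the row, cut at -5 and 5. The members and the adipocyte markers are high in FVB and low in PyMT, milk and luminal markers the reverse, and PyMT week 8 replicate 2 is the lowest tumor for 8 of 10 members.

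Single samples stood out in the same way across members. PyMT week 6 replicate 2 was the highest tumor for 9 of 10 members and PyMT week 8 replicate 2 the lowest for 8. The latter also had the lowest adipocyte sum of all samples, at 1382, and it is 1 of the libraries with many genes at 0. FVB week 8 replicate 1 was the highest gland for 9 of 10, and FVB week 6 replicate 2 the lowest for 5. With the PyMT library of week 8 replicate 2 and the FVB library of week 10 replicate 3 both left out, an alternative chosen after the data were seen, 10 of 10 members were called lower over the 4 weeks and 7 of 10 at week 8.

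Members were next compared with the adipocyte markers themselves. The mean log2 level of the 8 markers was added to the scaling of each sample, so that a value of 0 means a change as large as that of the markers. A value above 0 means that a gene fell less than the markers did, did not fall or rose. In this fit 5 of 10 members passed as having fallen less and none as having fallen more (edgeR, adjusted p under 0.05). Among all tested genes 94.8% passed above 0 and 0.107% below 0, and the median value was 4.06. A call in this direction was thus the rule among all genes, and 5 members were without it.

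Dgat1 was furthest from the markers at 2.42 (SE 0.35, edgeR adjusted p = 9.08e-09), followed by Gpd1 at 1.46 (SE 0.36, adjusted p = 0.000215), Mgll at 1.44 (SE 0.31, adjusted p = 2.92e-05), Pnpla2 at 1.15 (SE 0.32, adjusted p = 0.000737) and Agpat2 at 0.83 (SE 0.33, adjusted p = 0.0167). The other members did not pass. Dgat2 stood at -0.17 (SE 0.32), Lpl at -0.11 (SE 0.29), Lipe at 0.23 (SE 0.30), Cd36 at 0.24 (SE 0.30) and Pck1 at -0.25 (SE 0.38), with edgeR adjusted p of 0.439 to 0.712. With limma voom and sample quality weights Dgat2 (-0.46, adjusted p = 0.00734) and Cd36 (0.26, adjusted p = 0.0157) passed as well. The directions of the smallest values depended on the scaling, since Dgat2, Lpl and Pck1 turned above 0 with library size only.

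**Figure D4:**
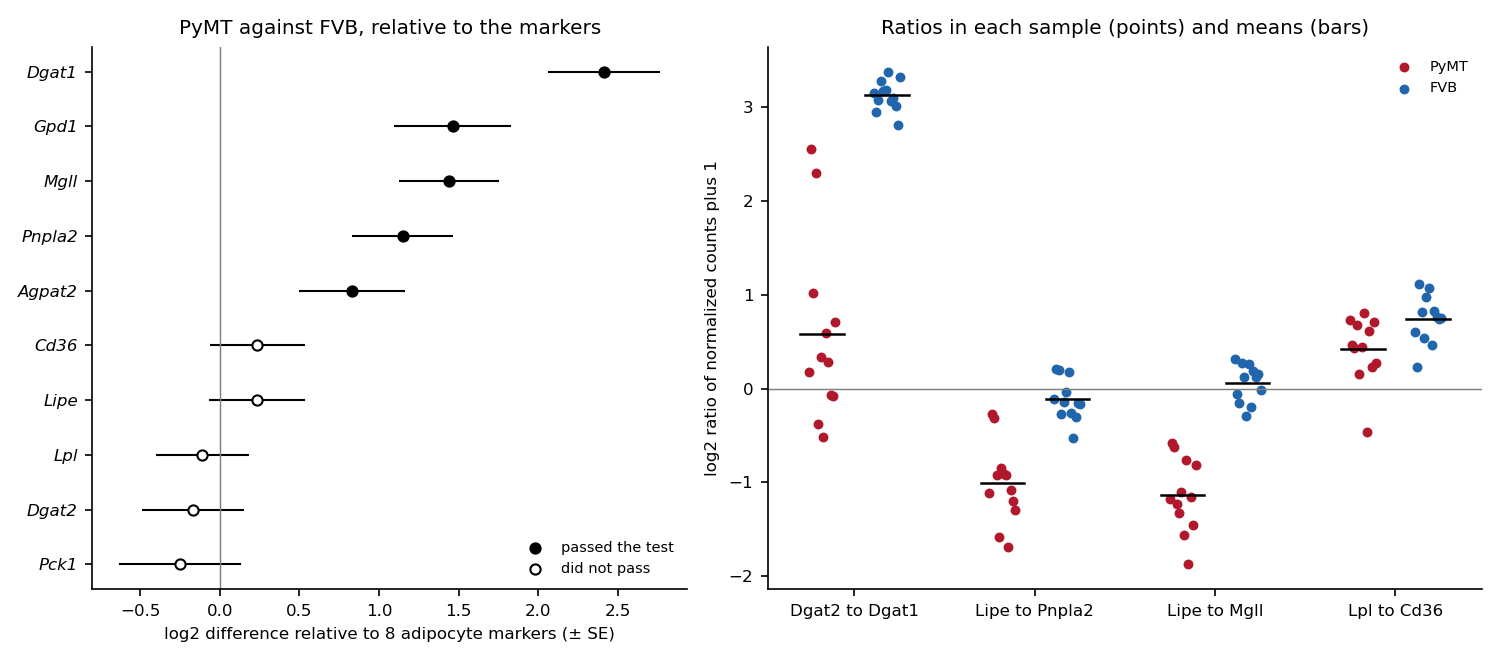
Left, log2 difference between PyMT and FVB of each member relative to the mean of 8 adipocyte markers (bars are 1 SE, 12 against 12 samples), where 0 is the change of the markers. Right, log2 ratio of 2 members in each sample (points, 12 PyMT and 12 FVB) with the mean of each genotype (bars). Dgat1 stands at 2.42 on the left, and the Dgat2 to Dgat1 ratio separates all 12 tumors from all 12 glands on the right.

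The wider pathway fell in most of its genes. Of 58 further genes matched in the annotation 53 were tested, and over the 4 weeks 34 were called lower, 4 higher and 15 neither, against 17.2% and 8.51% of all tested genes. The same shares of all tested genes apply to the 4-week counts of the 4 groups below. The median log2 fold change of the 53 genes was -1.91. At weeks 6, 8, 10 and 12 the genes called lower numbered 25, 20, 29 and 28, against 6.46%, 6.37%, 9.09% and 13% of all tested genes. Those called higher numbered 5, 3, 3 and 2, against 3.58%, 3.57%, 4.83% and 7.75% of all tested genes.

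In the group of triglyceride assembly and glycerol 3-phosphate supply 8 of 12 genes were called lower and 1 higher. Mogat1, a monoacylglycerol acyltransferase, changed most, with a log2 fold change of -4.27 (SE 0.65, edgeR adjusted p = 7.02e-06) at a low mean of 3.84 in PyMT and 66.1 in FVB. Agpat9 went from 842 ± 246 in FVB to 83.6 ± 59.2 normalized counts in PyMT (SD, n = 12 each), and Pcx, pyruvate carboxylase, from 10607 ± 6352 to 1217 ± 723. Gk, glycerol kinase, which reuses free glycerol, was the gene called the other way, at 777 ± 187 in PyMT against 336 ± 213 in FVB, a log2 fold change of 1.23 (SE 0.27, edgeR adjusted p = 0.000473). By week, Gk passed at week 6 only. The change of its PyMT against FVB difference from week 6 to week 12 did not pass, and 0% of tested genes did.

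Among genes of the lipid droplet and of the control of lipolysis 13 of 17 were called lower and 1 higher. Aqp7, the glycerol channel, changed by -4.30 (SE 0.40), Adrb3, the adrenergic receptor that starts lipolysis, by -4.15 (SE 0.34) and Plin1, which coats the droplet and holds the lipases back, by -4.01 (SE 0.34) on the log2 scale, with edgeR adjusted p of 4.02e-09 or less. Abhd5, the coactivator of Pnpla2, rose to 2736 ± 669 normalized counts in PyMT from 1078 ± 292 in FVB (SD, n = 12 each), a log2 fold change of 1.35 (SE 0.16, edgeR adjusted p = 1.20e-07). By week, its log2 fold change was 2.05, 1.44, 1.29 and 0.65 at weeks 6, 8, 10 and 12, and it was not called at week 12 (SE 0.18, edgeR adjusted p = 0.0295), where the change was under 2-fold. The change of the difference from week 6 to week 12 was -1.42 (SE 0.34) and did not pass (edgeR adjusted p = 0.643). G0s2, the inhibitor of Pnpla2, was called higher at week 6, at 1.47 (SE 0.22, edgeR adjusted p = 0.00508), and over the 4 weeks it reached 0.73 (SE 0.17), below the fold change asked for.

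Of the partners of lipoprotein lipase and of genes for uptake and activation of fatty acids 8 of 16 were called lower and 1 higher. Fabp4, the fatty acid carrier of adipocytes, fell by 3.78 (SE 0.37) and Cav1, caveolin, by 3.68 (SE 0.23) on the log2 scale, with edgeR adjusted p of 7.67e-09 and 9.18e-12. Acsl4, which activates polyunsaturated fatty acids for use, rose at all 4 weeks. It measured 5182 ± 1434 normalized counts in PyMT against 537 ± 126 in FVB (SD, n = 12 each), a log2 fold change of 3.28 (SE 0.16, edgeR adjusted p = 3.40e-13), with no overlap between the lowest tumor at 2450 and the highest gland at 794. Slc27a4, a fatty acid transport protein, was called higher at week 8, at 1.07 (SE 0.22, edgeR adjusted p = 0.0221), and was at 0.96 (SE 0.15) over the 4 weeks.

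Of 8 transcription factors of fat storage 5 were called lower and 1 higher. Mlxipl, which responds to glucose, changed by -3.28 (SE 0.41), Pparg, the main regulator of fat cells, by -3.27 (SE 0.35) and Nr1h3, an oxysterol receptor, by -2.96 (SE 0.40), with edgeR adjusted p of 1.50e-06 or less. Srebf1, the factor for fatty acid synthesis, was higher in tumors at 12197 ± 4108 normalized counts against 3993 ± 1120 (SD, n = 12 each), a log2 fold change of 1.59 (SE 0.16, edgeR adjusted p = 1.20e-08). It was called at weeks 6, 10 and 12.

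**Figure D5:**
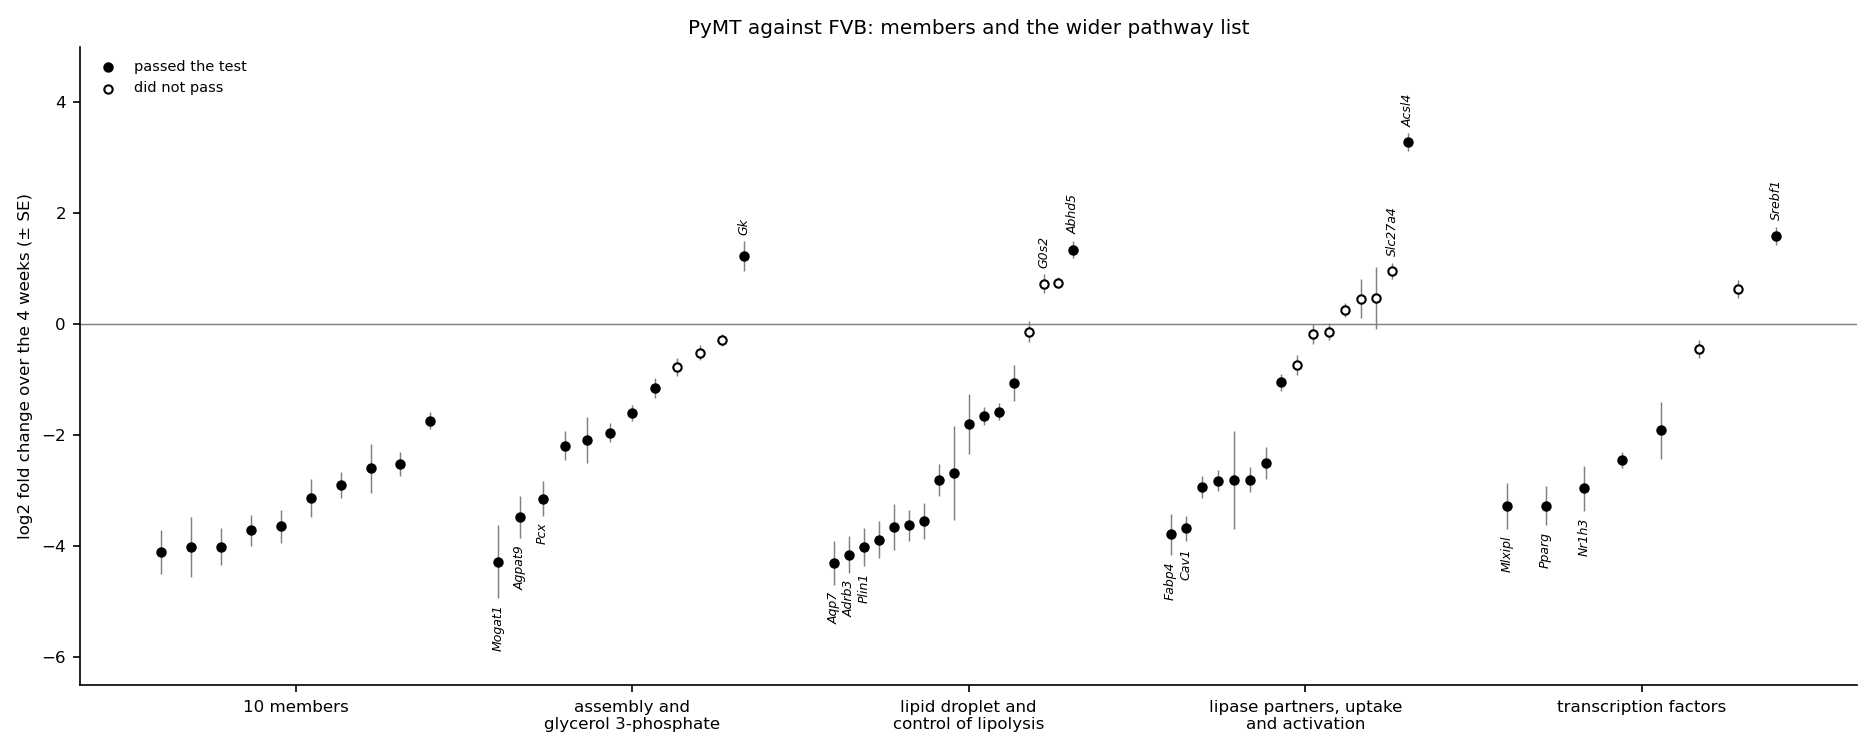
log2 fold change of PyMT against FVB over the 4 weeks (vertical axis, bars are 1 SE, 12 against 12 samples) for the 10 members and the 53 tested genes of the pathway list in 4 groups. Filled points passed the test. Most points are below 0, and Gk, Abhd5, Acsl4 and Srebf1 are the filled points above it.

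The genes with the most similar pattern were found by the correlation of log2(normalized count + 1) over the 24 samples. With the mean of the 10 standardized members, Pearson's r was 0.995 for Acsl1, 0.992 for Dhdh, 0.990 for Plin1, 0.989 for Tns1 and 0.988 for Cdo1. The gene nearest to each assembly enzyme was Tmem120b for Dgat1 (r = 0.970), Acss3 for Dgat2 (0.987) and Pcx for Agpat2 (0.983). For the lipases it was Abcd2 for Lpl (0.996), Plin1 for Lipe (0.994), Pfkfb3 for Pnpla2 (0.987) and Slc1a5 for Mgll (0.988). Fabp4 was nearest to Cd36 (0.994), Acacb to Gpd1 (0.975) and Ephx2 to Pck1 (0.978). These points share the split between genotypes and the scaling of each library, so the values describe the profiles and no test was made of them.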

How the data were processed

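Per the labels and the methods, the authors depleted ribosomal RNA from total RNA, made directional libraries, trimmed adapters, aligned reads to mm9 with GSNAP and counted them with HTSeq 0.5.3p3. The authors deposited raw counts of 37991 Ensembl genes for 24 samples, without normalization. The annotation release behind the counts and the strand setting are not given in the sources used here. Gene symbols, exon lengths and mm9 coordinates were taken from GENCODE M1, which holds 37205 of the genes. Groups were taken from genotype and week. The chi-square per gene between replicates of a group was 19.3 to 244, so no replicate was a copy of another of its group.

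The filter kept the 14918 genes that reached 1 CPM in 12 or more samples. Each week was fitted on its 6 samples with edgeR 4.0.16 (quasi-likelihood test, TMM scaling, Benjamini-Hochberg adjustment over all 14918 genes) in R 4.3.3. The 4-week comparison used all 24 samples with week as a factor, and contrasts between weeks used 8 group means. A gene was called with an adjusted p under 0.05 and, for PyMT against FVB within a week or over the 4 weeks, a fold change above 2. The study names edgeR and these thresholds, but not the edgeR function. The standard error is the size of the log2 fold change over the square root of F. In the comparison with adipocyte markers, their mean log2 level was added to the offset. Normalized counts are counts over DESeq2 1.42.0 size factors, with 1 added before log2. Ratios were tested by exact permutation of genotype within weeks. Python 3.11.15, NumPy 2.4.6, pandas 2.3.3, SciPy 1.17.1 and matplotlib 3.10.9 were used for the rest. The packet size was searched between 5 and 30 counts after smoothing with an SD of 1.5 reads. The fits were also run on simulated counts with known changes. That simulation held no packets and no outlying libraries, so it does not speak to these features of the data.

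The members, gene lists, tests and named genes were chosen with earlier results of these data known. Named are all members, the 3 pathway genes per group with the largest change among those called over the 4 weeks, every pathway gene called against most of its group at any week, the 5 genes most like the mean of the members and the 1 most like each member. Alternatives were library size only, no filter on low counts, RLE size factors, counts divided by the packet size, DESeq2's test, limma 3.58.1 voom with sample quality weights, a replicate block, a fit of all 24 samples for each week, no minimum fold change, a second marker list, a pseudocount of 10 for ratios and each replicate left out in turn. Leaving out FVB week 10 replicate 3 and PyMT week 8 replicate 2 together was added after the data were seen.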

Additional observations from a re-analysis of the deposited data

How the results depend on the processing

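All 10 members stayed below 0 in PyMT against FVB at every week and over the 4 weeks under every alternative run, and all 10 calls of weeks 10 and 12 and of the 4-week comparison were kept. With library size only, the median over tested genes shifted, on the log2 scale, to 0.19 at week 6, 0.20 at week 8, 0.30 at week 10, 0.32 at week 12 and 0.26 over the 4 weeks, and the members' highest value was -0.86 at week 6. Members called at week 6 ranged from 3 to 10 and at week 8 from 3 to 8 with 1 replicate left out. At week 6 these were 3 without PyMT replicate 3, and Cd36, Lpl and Lipe kept the call there. At week 8 they were 3 without PyMT replicate 3. Fewer samples leave less power in these fits. With all samples kept, 8 members were called at week 8 with RLE size factors, with library size only and with no minimum fold change. DESeq2 and voom each called 9 there. With no filter on low counts, with packet-divided counts and with the fit of all 24 samples, 10 were called at week 8. The Lpl to Cd36 ratio ranged from -0.38 to -0.22 with 1 replicate left out. Relative to the adipocyte markers, with no call in any case, Dgat2 stood at 0.15, Lpl at 0.17 and Pck1 at 0.0721 with library size only. Lpl stood at 0.0426 with the second marker list, and Pck1 at 0.0148 without FVB week 10 replicate 3 and PyMT week 8 replicate 2. These signs turned within their standard errors, and the cause was not tested. With voom 7 members passed in place of 5. Over all genes, week 8 gave 1484 calls, against 2489 with DESeq2, 2615 with packet-divided counts and 2366 with voom, and the 4-week comparison gave 3840 calls, against 7620 with no minimum fold change.

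The replicate numbers are not stated to pair PyMT with FVB mice. Deviations of samples with the same number correlated at -0.02 to 0.18, so pairing was not established. With the replicate block 9 members were called at week 6, 10 at week 8, 10 at week 10, 10 at week 12 and 10 over the 4 weeks. Relative to the markers 5 were called under the block, and no contrast between weeks called a member. With permutation within the pairs, 3 ratios kept an adjusted p of 0.000651 and Lpl to Cd36 one of 0.00879 (exact permutation test). Depth limits the lowest values, such as the 14 counts of Pck1 in PyMT week 8 replicate 2. If counts came in packets, they would be coarser than single reads, but the cause of the histogram peak was not tested.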

Other observations

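Some genes of the same pathway changed less than 2-fold over the 4 weeks. They were picked after their values were seen. Plin2, a droplet coat protein found in many cell types, had a log2 fold change of -0.14, Acsl3, an enzyme that activates fatty acids, one of -0.13, and Agpat6, which starts glycerolipid synthesis in milk-producing epithelium, one of -0.28. Plin3, another coat protein, was higher in tumors at 0.75 (SE 0.11, edgeR adjusted p = 2.17e-06). Agpat6 also had an edgeR adjusted p under 0.05, at 0.0350, and the other 2 did not.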
